A study of Mus musculus with 8 samples.

Results

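Oligodendrocytes are the glia that wrap axons in myelin, and 46 genes of their lineage and of myelin were described here in the striatum of R6/2 and wild-type (WT) mice. The genes were chosen as a list of markers of the precursor, of the committed and newly formed cell and of the mature myelinating cell, together with the transcription factors of the lineage. Probes were taken where the array's gene name was a listed gene. This found 44 of the 46 genes, 43 by the name in the scanner files and Myrf by the name in the authors' table, and Tmem10 and Itpr1ip were not matched. The 44 genes had 63 of the 55681 non-control probes, and 62 of these probes were bright enough to test, so that all 44 genes were tested among 17890 named genes. The dim probe was the second probe of Bmp4.

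The study measured striatal RNA of male mice aged 4 weeks on 1-colour microarrays, with 4 arrays from R6/2 mice and 4 from WT controls. The R6/2 line models Huntington's disease through a fragment of human huntingtin, encoded by exon 1 with its CAG tract lengthened and driven by the human promoter. No treatment was given in the labels, and the background strain, the repeat length and the number of animals behind each sample are not given in the sources used here. Nothing in the labels ties a replicate to its own animal; p-values here therefore reflect the spread among these 8 samples alone, some of which may be technical.

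Oligodendrocytes arise from proliferating precursors that carry the receptor Pdgfra and the proteoglycan Cspg4. The factors Olig2 and Sox10 set the lineage, Gpr17, Bcas1 and Enpp6 mark cells that are leaving the precursor state, and Myrf switches on the myelin genes of the mature cell. In the mouse forebrain, myelin is still being laid down in the weeks after birth. In RNA from whole tissue, fewer cells of a type and less RNA per cell cannot be told apart.

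Values are log2 of the array's processed signal relative to the 75th percentile of that array, so 0 is that percentile's signal, and a difference is R6/2 minus WT. The arrays had 61.5% to 67.7% of their probes well above background and 0 saturated spots. All 8 arrays lay on 1 slide, with the WT arrays in row 1 and the R6/2 arrays in row 2, so slide row and genotype cannot be told apart. Across all genes tested, 345 were called at an adjusted p under 0.05 (limma, Benjamini-Hochberg over 35121 probes), 261 lower and 84 higher in R6/2, and 185 with the replicate number as a block. The labelled tissue carried its defining markers: 14 of 15 listed genes of striatal projection neurons were tested, and 8 of them fell in R6/2, among them Penk, Arpp21, Scn4b and Pde10a with log2 differences of -1.11, -0.90, -1.23 and -0.99.

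None of the 44 oligodendrocyte genes was called in either direction (0 of 44, against 1.93% of all genes tested and 1.46% called lower). An unadjusted p under 0.05 was reached by 3 members, Ermn, Sox5 and Nkx2-9, where 18.9% of all genes tested reached it. The difference was below 0 for 15 members and above 0 for 29, and 46.2% of all genes were below 0. The median difference was 0.05 over the members and 0.02 over all genes tested. Each gene was read here from 1 representing probe, its tested probe of highest mean signal. On these probes the 4 R6/2 arrays all lay below the 4 WT arrays for 2 members, Ermn and Sox5, where 6.75% of all genes did. They all lay above them for 0 members, where 7.62% of all genes did. Among the other probes, the second of Enpp6 had all R6/2 arrays above WT, and a dim one named Ptprz1 had all below.

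A missed threshold does not show that the genotypes were alike, and the intervals give what these arrays allow. The 95% interval of the difference stayed within a 1.5-fold change either way for 35 of the 44 members and within a 2-fold change for 42. Among all 17890 genes tested, dim ones included, it did so for 12826 and 16106. For the 9129 genes of mean log2 signal above 0 the counts were 7960 and 8871. For the 23 mature members of mean above 0 they were 18 and 22. The median half-width of the interval was 0.35 for the members and 0.25 for all genes tested. The median spread between arrays of 1 genotype was larger for the members as a whole, with an SD of 0.23 against 0.16 for all genes tested. It was 0.24 for the mature genes of mean log2 signal above 0, and 0.12 for all genes of mean above 0. The precursor genes, at 0.14, did not share the larger spread. The range over the 4 WT arrays exceeded the difference between the genotypes for 41 of the 44 members, and both genotypes' ranges did for 39. Leaving out any 1 array called 0 members.

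**Figure D1:**
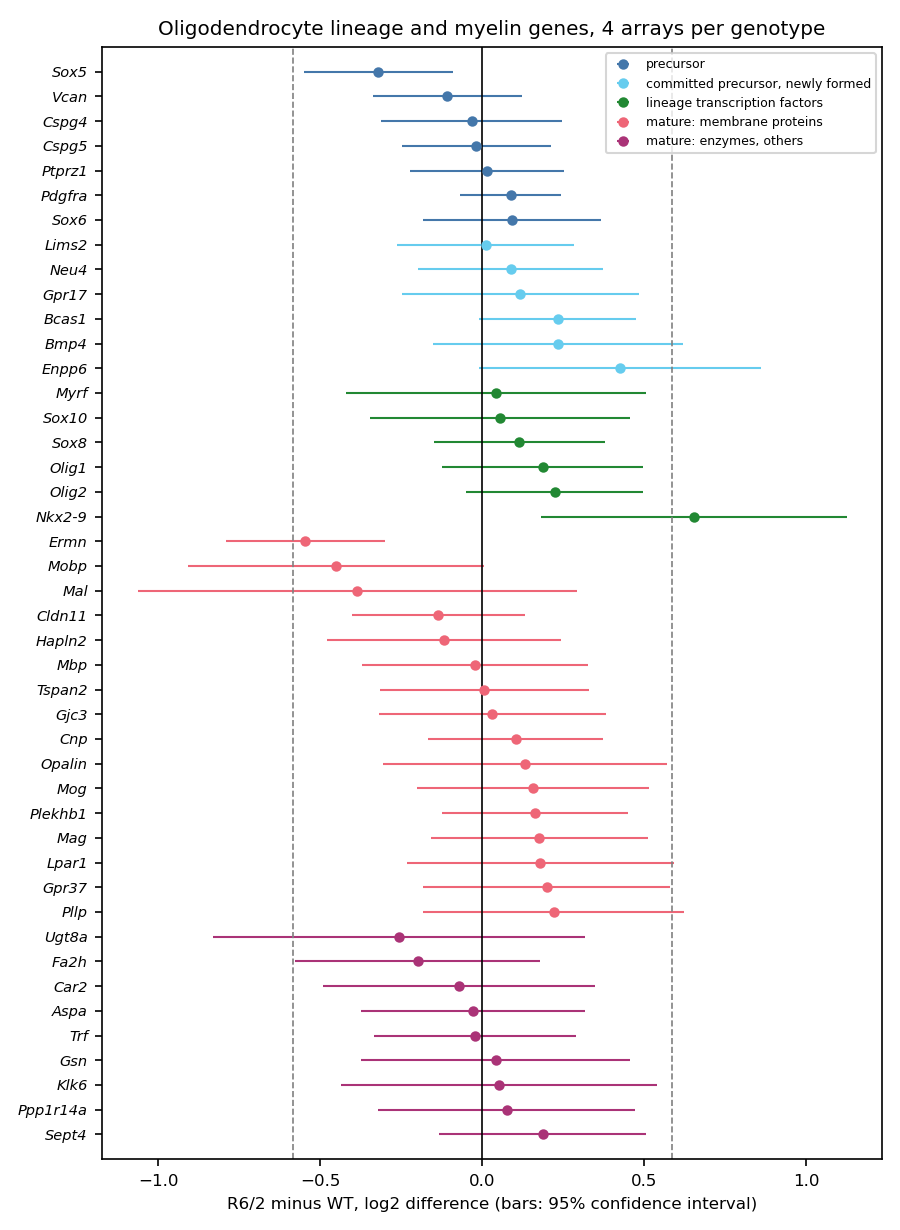
Log2 difference (R6/2 minus WT) of each of the 44 genes on the horizontal axis, with its 95% confidence interval, ordered by stage and by size; colours mark the 5 stage lists and dashed lines a 1.5-fold change. The intervals of Ermn, Sox5 and Nkx2-9 are the 3 that do not cross 0, and 35 of the 44 stay between the dashed lines.

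The 2 members whose genotypes did not overlap on the representing probe, Ermn and Sox5, share a feature of their probes that the list did not use. The probes are 60 bases long, and those of these genes are printed 5′ to 3′ from the scanner files, with the longest run of A and G bases in capitals, because that run sets the bright probes of both genes apart from the other probes of the same genes. Positions are those of the files on mouse build mm9; exons and untranslated regions were not assigned. The bright probe of Ermn lies on chr2:57900470-57900529 (minus strand) and is shown whole, and the second lies on chr2:57897554-57897613 (minus strand). The bright probe of Sox5 is placed on chr6:143776945-143776971 (minus strand), with 27 of its 60 bases placed, and the others on chr6:143781520-143781579 and chr6:143787982-143788041 (minus strand). Of these 4 probes the first 30 bases are shown, so a run that lies past them is cut off or not seen.
Ermn, bright probe: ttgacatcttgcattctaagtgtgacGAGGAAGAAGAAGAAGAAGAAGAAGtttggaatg
Ermn, second probe: ctacctatcatctacctacctacctgctgt
Sox5, bright probe: GGAGGAGGAGGAAGAGGAGGAGGAGGAAGA
Sox5, second probe: ttacaagcaaaaacgtcatcAAGAAGAAGA
Sox5, probe 3: ctgggcccatgggcaaattcaatcagatgc
The run of A and G was 25 bases in the bright probe of Ermn and all 60 in that of Sox5, and at most 14 in the other 60 tested probes of the members. It was 6 bases in the second probe of Ermn, 12 in the second of Sox5 and 13 in probe 3 of Sox5, and the printed bases do not show these runs in full.

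Ermn, which codes for the cytoskeletal myelin protein ermin, had the lowest difference and the smallest p of the members, and missed the threshold. Its bright probe read 6.26, 6.18, 6.51 and 6.35 on the WT arrays 1 to 4 and 5.83, 5.79, 5.93 and 5.55 on the R6/2 arrays 1 to 4. The lowest WT array lay above the highest R6/2 array. The difference was -0.55 ± 0.11 (SE, n = 4 per genotype), with a 95% interval of -0.79 to -0.30 and an adjusted p of 0.0532 in limma. It was 0.0683 with the replicate number as a block, and 0.0784 to 0.133 with 1 array left out. The bright probe passed the threshold in 3 alternatives, with adjusted p values of 0.0337 with normexp background correction, 0.0416 over probes above background on all 8 arrays and 0.0296 with array weights. The mean over both probes gave -0.18 (adjusted p = 0.416). The authors' deposited table gives this probe a fold of 1.45 down with an adjusted p of 0.127. The second probe of Ermn went the other way, at 3.09, 2.49, 2.37 and 3.01 in WT and 2.88, 3.04, 2.90 and 2.85 in R6/2. Its genotypes overlapped and its difference was 0.18 (95% interval -0.21 to 0.57, adjusted p = 0.642).

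**Figure D2:**
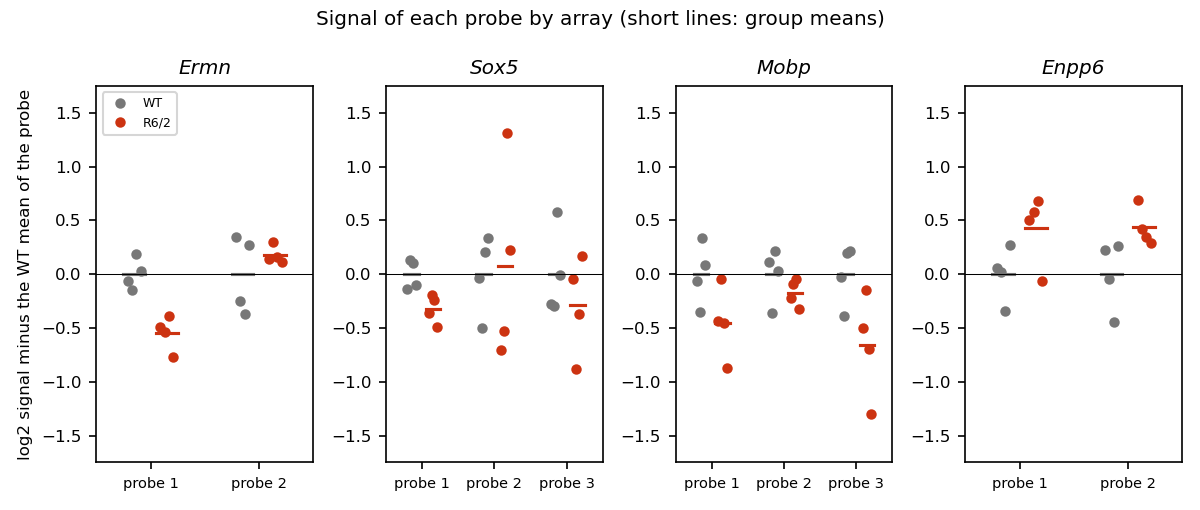
Log2 signal minus the probe's WT mean (vertical axis) on each array for every tested probe of Ermn, Sox5, Mobp and Enpp6, with probe 1 the bright one; grey points are the 4 WT arrays, red points the 4 R6/2 arrays, and short lines the group means. Probe 1 of Ermn is separated at -0.55 while probe 2 is at 0.18, the R6/2 means of the 3 probes of Mobp are below 0, and those of both probes of Enpp6 are above 0 with R6/2 4 among the WT points for probe 1.

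Most other probes on the array with such a repeat had differences of the same sign. They were looked up after the values of Ermn and Sox5 were seen, and the following is a description with no test. The letters GAAGAAGAAGAA, 4 GAA triplets in a row as in the bright probe of Ermn, were in 68 tested probes, and the difference was below 0 in 68 of the 68, where 48.1% of all tested probes were below 0. Their median was -0.41, 17 of them (25%) were called lower, where 1.14% of all tested probes were, and in 59 of them (86.8%) all R6/2 arrays lay below all WT arrays, where 6.19% of all tested probes did. The letters GAGGAGGAGGAG, as in the bright probe of Sox5, were in 37 tested probes, of which 37 were below 0 with a median of -0.33 and 1 was called lower. Both repeats occurred together in 6 tested probes. A run of at least 20 A and G bases, of whatever order, was in 181 tested probes, of which 160 (88.4%) were below 0, with a median of -0.37 and a range from -1.50 to 0.69, and 14 were called lower. On the other strand, TTCTTCTTCTTC was in 3 tested probes with a median of -0.43, and CTCCTCCTCCTC was in 4 with a median of 0.05.

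Probes with other repeats differed in sign. Those with GTGTGTGTGTGT, 111 in number, had a median of 0.13 and were below 0 in 4.5%, and the 59 with CACACACACACA had a median of -0.33 and were below 0 in 96.6%. The CAG repeat CAGCAGCAGCAG was in 12 tested probes with a median of -0.07, and its reverse complement CTGCTGCTGCTG in 7 with a median of -0.03. The centred mean of the 67 GAA probes other than that of Ermn was 0.22, 0.11, 0.38 and 0.23 on the WT arrays 1 to 4 and -0.19, -0.21, -0.13 and -0.41 on the R6/2 arrays 1 to 4. Every WT array was above every R6/2 array, with WT 3 highest and R6/2 4 lowest, as in the bright probe of Ermn. The repeat was picked from that probe, and 59 of the 68 GAA probes separate the genotypes on their own. The match in order is therefore no test of the repeat. The part of the repeat in the values of Ermn and Sox5 was not tested. Without the 205 tested probes that hold 4 GAA or 4 GAG triplets in a row or a run of at least 20 A and G bases, Ermn is read from its second probe at 0.18 and Sox5 from a probe at 0.08. The other 42 members kept their probes, so their array values were as before. That 0 of them had all R6/2 arrays below WT was thus fixed beforehand, since Ermn and Sox5 were the only such members on the representing probes. Of these 42, 1, Nkx2-9, had an unadjusted p under 0.05.

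**Figure D3:**
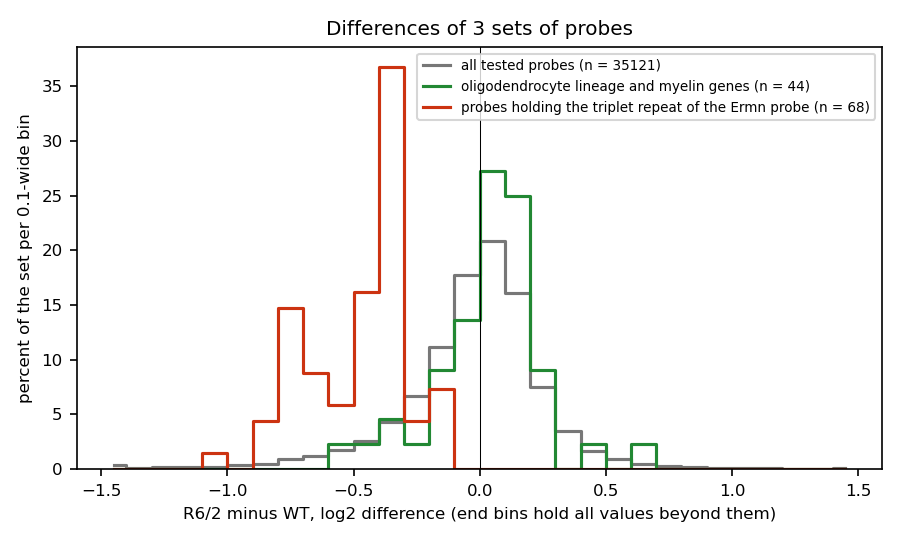
Share of each set (vertical axis, percent per bin of width 0.1) by log2 difference, R6/2 minus WT (horizontal axis), for the 35121 tested probes, the 44 oligodendrocyte genes and the 68 probes that hold 4 GAA triplets in a row. The members lie around 0, with a median of 0.05 against 0.01 for the tested probes, and the triplet probes all lie below 0 with a median of -0.41.

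The precursor genes centred near 0. Over the 7 of them, which code for the growth factor receptor Pdgfra, the proteoglycans Cspg4, Cspg5 and Vcan, the receptor phosphatase Ptprz1 and the factors Sox5 and Sox6, the median difference was -0.02, with 4 below 0 and 3 above. Pdgfra, through which platelet-derived growth factor keeps precursors dividing, read 0.99, 0.83, 0.85 and 0.93 in WT and 0.94, 0.99, 1.06 and 0.95 in R6/2. All 8 of its values lay close together, and its interval of -0.07 to 0.24 around a difference of 0.09 was the narrowest in this list. Vcan, an extracellular matrix proteoglycan, read 0.21, -0.03, -0.09 and 0.13 in WT and 0.12, -0.02, -0.10 and -0.21 in R6/2. Its genotypes overlapped, with a difference of -0.11 (95% interval -0.34 to 0.12, adjusted p = 0.635).

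Sox6, which with Sox5 holds precursors back from maturing, read -3.15, -3.31, -3.35 and -3.02 in WT and -2.94, -3.10, -3.04 and -3.39 in R6/2. The difference was 0.09 (95% interval -0.18 to 0.37), with R6/2 4 the lowest of all arrays. Sox5 was read from the bright repeat probe, at 7.19, 7.46, 7.43 and 7.22 in WT and 6.96, 7.13, 7.08 and 6.83 in R6/2, with no overlap. That difference was -0.32 ± 0.10 (SE, n = 4 per genotype, adjusted p = 0.16 in limma, 0.0772 with the replicate block), and the mean over its probes gave -0.18 (adjusted p = 0.685). The other probes of Sox5 were dim, with WT means of -4.86 and -4.79 against 7.32 on the bright probe. They were well above background on 3 and 4 WT arrays and on 2 and 3 R6/2 arrays. Their differences were 0.08 and -0.28, with overlapping groups and wide intervals of -0.91 to 1.06 and -0.90 to 0.34. Which of these levels reflects Sox5 RNA was not tested. Cspg4, which pericytes also express, and Cspg5 were at -0.03 and -0.02. The bright probes of Ptprz1 both gave 0.01; another, dim probe under that name gave -0.79 (adjusted p = 0.118) with all R6/2 arrays below WT, and the scanner files place it on another chromosome than the first pair.

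The genes of committed and newly formed oligodendrocytes all had differences above 0 on their representing probes, except that Lims2 was below 0 with normexp and with quantile scaling, and none passed the test. The list held 6 tested genes with a median of 0.18 and a range from 0.01 (Lims2) to 0.43 (Enpp6). Enpp6, a choline phosphodiesterase of newly forming oligodendrocytes, read -1.46, -1.50, -1.86 and -1.24 in WT and -1.01, -0.94, -0.83 and -1.58 in R6/2. The R6/2 arrays 1 to 3 lay above all WT arrays and R6/2 4 lay among them. The difference was 0.43 ± 0.19 (95% interval -0.01 to 0.86, adjusted p = 0.304). The second probe of Enpp6 gave 0.44, at -2.27, -2.53, -2.93 and -2.22 in WT and -1.80, -2.06, -2.14 and -2.20 in R6/2. There every R6/2 array was above every WT array, with an adjusted p of 0.241.

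Bcas1, which marks early myelinating cells, read 5.01, 4.64, 4.81 and 4.91 in WT and 4.92, 5.06, 5.26 and 5.07 in R6/2. R6/2 1 lay within the WT range and the other R6/2 arrays above it, with a difference of 0.23 (95% interval -0.01 to 0.48, adjusted p = 0.312). Bmp4, a secreted ligand that restrains oligodendrocyte maturation, read 0.12, 0.10, 0.57 and 0.65 in WT and 0.56, 0.48, 0.93 and 0.41 in R6/2. Its WT arrays fell into a low and a high pair that enclosed most of the R6/2 values, and the difference was 0.23 (95% interval -0.15 to 0.62). Gpr17, an orphan receptor of committed precursors, read 4.35, 4.47, 4.10 and 4.52 in WT and 4.54, 4.75, 4.57 and 4.06 in R6/2. Its highest values were R6/2 arrays 1 to 3 and its lowest was R6/2 4, with a difference of 0.12 (95% interval -0.25 to 0.49). Neu4, a sialidase, was at 0.09.

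The 6 transcription factors of the lineage also had differences above 0, from 0.04 (Myrf, which was below 0 with array weights) to 0.65 (Nkx2-9). Their median was 0.15 and 0 were called. Olig2, which specifies the lineage, read 0.22, 0.15, 0.13 and 0.26 in WT and 0.35, 0.56, 0.63 and 0.10 in R6/2. The R6/2 arrays 1 to 3 lay above the WT arrays and R6/2 4 below them, with a difference of 0.22 (95% interval -0.05 to 0.50, adjusted p = 0.389). Its partner Olig1 read 4.21, 3.66, 3.91 and 3.99 in WT and 4.08, 4.21, 4.31 and 3.91 in R6/2, a difference of 0.19 (95% interval -0.13 to 0.50) with overlapping genotypes. Sox8 read 0.24, 0.52, 0.27 and 0.34 in WT and 0.46, 0.71, 0.42 and 0.23 in R6/2, a difference of 0.11. Sox10, which acts with Sox8 in maturation, was at 0.05, so that in each of these 4 factors R6/2 4 was the lowest R6/2 array.

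Nkx2-9, a homeobox gene related to Nkx2-2, had the highest difference among the members, at a low signal. It read -3.93, -3.84, -4.09 and -3.29 in WT and -3.00, -2.98, -2.98 and -3.58 in R6/2. WT 4 was high among the WT arrays and R6/2 4 low among the R6/2 arrays, and these values overlapped. The difference was 0.65 ± 0.21 (95% interval 0.18 to 1.12, adjusted p = 0.162), and the adjusted p lay between 0.107 and 0.322 with 1 array left out. With normexp it was 0.35 (adjusted p = 0.106), just under Enpp6 at 0.36 in that setting.

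Among the 16 tested genes of structural and membrane proteins of myelin, 6 had differences below 0 and 10 above, with a median of 0.07. Mbp, which compacts the myelin sheath, was at -0.02 (95% interval -0.37 to 0.33), and its other probes were at -0.00 and -0.03. Next to Mbp at the inner membrane face, Mobp had values below 0 on all 3 probes: -0.45, -0.17 and -0.66. Its bright probe read 5.93, 5.64, 6.33 and 6.08 in WT and 5.56, 5.96, 5.55 and 5.12 in R6/2. R6/2 2 lay among the WT arrays and the others below them, and the adjusted p was 0.3 (95% interval -0.91 to 0.01). The dimmest probe read 0.11, -0.26, 0.34 and 0.35 in WT and -0.36, -0.01, -0.56 and -1.17 in R6/2, again with R6/2 2 among the WT arrays (adjusted p = 0.229).

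Mal, a proteolipid of myelin membranes, had the widest range of the members within a genotype. It read 7.50, 6.34, 6.54 and 7.39 in WT and 6.53, 6.99, 6.54 and 6.18 in R6/2. WT 1 and WT 4 were high and the other WT arrays lay within the R6/2 range, so that the WT range of 1.16 exceeded the difference of -0.39 (95% interval -1.06 to 0.29, adjusted p = 0.556). Plekhb1, a membrane-associated protein also found in neurons, read 6.45, 6.18, 6.58 and 6.32 in WT and 6.26, 6.62, 6.67 and 6.64 in R6/2, a difference of 0.16 with overlap. Its second probe gave 0.37 (95% interval 0.08 to 0.65, adjusted p = 0.187).

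The other membrane proteins of the sheath lay between -0.14 and 0.22, with overlapping genotypes. Mag, which holds the innermost wrap to the axon, was at 0.18 (95% interval -0.16 to 0.51), Mog, on the outermost surface, at 0.16 (-0.20 to 0.52), and the tight junction protein Cldn11 at -0.14 (-0.40 to 0.13). Cnp, an enzyme of the non-compact myelin, was at 0.10 and the tetraspanin Tspan2 at 0.01. The gap junction protein Gjc3 was at 0.03, the late marker Opalin at 0.13, and Pllp, a membrane protein of the sheath, at 0.22. The receptors Gpr37 and Lpar1 were at 0.20 (0.36 on a dim second probe of Gpr37) and 0.18, and Hapln2, a link protein at nodes of Ranvier, at -0.12.

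The 9 genes of enzymes, lipid synthesis, metal handling and cytoskeleton of the mature cell had a median of -0.02, with 5 below 0 and 4 above, and their adjusted p values were at least 0.545. Sept4, a septin, read 5.40, 4.92, 4.76 and 5.22 in WT and 5.21, 5.24, 5.36 and 5.24 in R6/2. The WT arrays spanned the R6/2 ones, with a difference of 0.19 (95% interval -0.13 to 0.51) and 0.25 on its second probe. The genes of galactolipid synthesis were both below 0 in value: Fa2h, which hydroxylates the fatty acids of myelin lipids, at -0.20, and Ugt8a, which makes galactosylceramide, at -0.26.

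Fa2h read 4.07, 3.49, 3.68 and 3.81 in WT and 3.65, 3.64, 3.78 and 3.18 in R6/2. Ugt8a read 3.53, 3.20, 2.90 and 3.80 in WT and 3.51, 2.99, 3.32 and 2.57 in R6/2. In both genes R6/2 4 was the lowest array, and the other R6/2 arrays lay within the WT range. The intervals were -0.58 to 0.18 and -0.83 to 0.32. Ppp1r14a, a phosphatase inhibitor, read 3.46, 2.84, 2.63 and 3.08 in WT and 3.05, 3.07, 3.27 and 2.94 in R6/2, a difference of 0.08 with WT values on both sides of the R6/2 ones. Aspa, which splits N-acetylaspartate for lipid synthesis, was at -0.03, the carbonic anhydrase Car2 at -0.07, the iron carrier Trf at -0.02, the actin-severing protein Gsn at 0.04 and the protease Klk6 at 0.05.

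The arrays of 1 genotype differed from each other. Over the 25 mature genes, each centred on its mean, the array means were 0.25, -0.18, -0.16 and 0.13 for WT 1 to 4 and 0.00, 0.08, 0.13 and -0.26 for R6/2 1 to 4. The highest and the lowest array were thus of different genotypes, while WT 2 and WT 3 lay below the R6/2 arrays 1 to 3. R6/2 4 was the lowest R6/2 array for 35 of the 44 members (79.5%), where it was so for 26.5% of all genes tested. WT 1 was the highest WT array for 17 of the 25 mature genes (68%, against 27.1% of all genes), and R6/2 3 the highest R6/2 array for 26 of the 44 (59.1%, against 21.8%). In the precursor list R6/2 4 was the lowest R6/2 array for 4 of 7 and R6/2 3 the highest for 1 of 7. In the lists of other oligodendrocyte genes the centred means on R6/2 4 were 0.0096 for precursors and -0.16 for newly formed cells. In the other mature genes R6/2 1, at -0.10, was below R6/2 4, at -0.077. That list holds Adamts4, which read -0.65 on R6/2 1 and 3.09 to 4.49 on the other arrays. The order of these 2 arrays without Adamts4 was not tested.

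Without R6/2 4 the medians of the lists were 0.01 for precursors, 0.25 for newly formed cells, 0.24 for transcription factors, 0.11 for membrane proteins and 0.09 for enzymes, and 0 members were called. Across the arrays the newly formed list went with the transcription factors: both were highest on R6/2 3, at 0.30 and 0.27, and both were below 0 on R6/2 4, at -0.18 and -0.20. Other cell types also varied between arrays within a genotype. The centred mean of 10 choroid plexus markers ranged from -1.10 to 1.09 over WT and from -1.11 to 0.89 over R6/2, and Trf is expressed there too. That of 10 endothelial markers was 0.56 on WT 3 and -0.25 to 0.19 on the other arrays, and that of 12 microglial markers was 0.38 on WT 3. The part of these in the spread of the members was not tested.

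**Figure D4:**
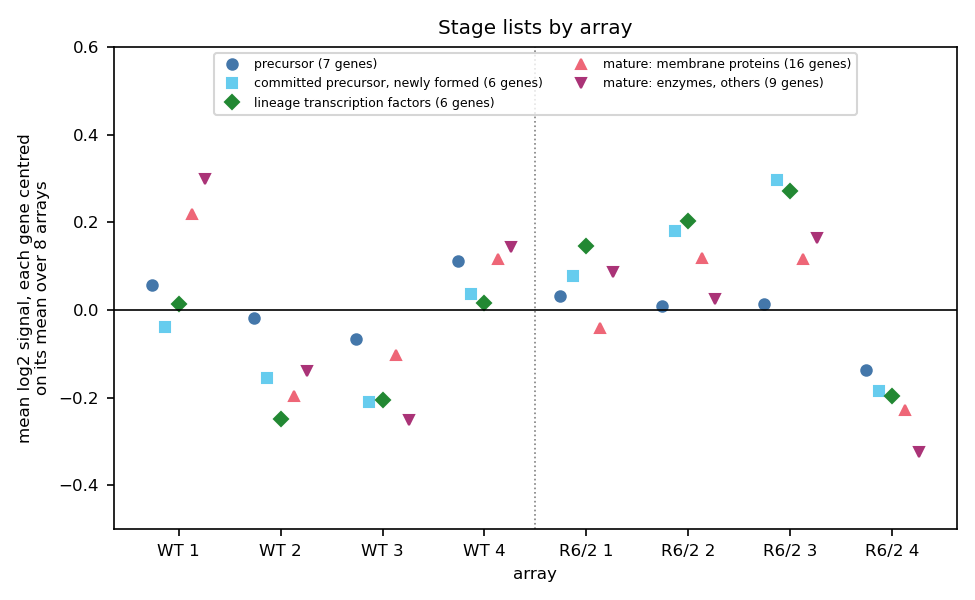
Mean log2 signal of each of the 5 stage lists, with each gene centred on its mean over the 8 arrays (vertical axis), by array (horizontal axis), the WT arrays left of the dotted line. All 5 lists are below 0 on R6/2 4, the lists of mature genes are highest on WT 1, and the newly formed and transcription factor lists are highest on R6/2 3.

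Genes measured by several probes gave a further view of the error. Of the 13 members with more than 1 tested probe, all probes had the same sign in 7 and different signs in 6, and the probes of 1 gene lay a median of 0.16 apart. They lay more than 0.5 apart in 2 of these genes, Ermn (0.73 apart) and Ptprz1 (0.80 apart).

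Other genes of the lineage, from a list of markers outside the 44, gave the same count. Of 57 tested, 0 were called (limma, adjusted p under 0.05), where 1.93% of all genes tested were. Differences were below 0 in 21 and above 0 in 36, with a median of 0.05, and 8 genes had an unadjusted p under 0.05. These 8 were 5 of 12 precursor, 1 of 16 newly formed and 2 of 29 mature genes, where 18.9% of all genes tested reached it. The precursor list had 4 genes below 0 and 8 above, with a median of 0.05 and a range from -0.60 (Cacng4) to 0.33 (Matn4). Its genes of smallest p were both below 0. Cacng4, a subunit of AMPA receptors and calcium channels, was at -0.60 (adjusted p = 0.193) and Megf11 at -0.37 (adjusted p = 0.236). The newly formed list had 7 genes below 0 and 9 above, with a median of 0.04. In it Ust, a sulfotransferase, was at 0.34 (adjusted p = 0.194) and the Wnt effector Tcf7l2 at -0.78 (adjusted p = 0.413). Tcf7l2 read 0.04, -1.64, -2.02 and -1.70 in WT and -1.71, -1.86, -2.29 and -2.56 in R6/2, with WT 1 far above all other arrays. In the mature list Pex5l was at -0.31 (adjusted p = 0.146) and Anln, a septin-binding protein of myelin, at 0.35 (adjusted p = 0.175). Anln read 2.95, 2.53, 2.88 and 2.83 in WT and 3.02, 3.11, 3.34 and 3.12 in R6/2, with every R6/2 array above every WT array. Adamts4, a protease of mature oligodendrocytes picked for mention after its values were seen, turned on 1 array. It read 3.36, 3.09, 3.21 and 3.28 in WT and -0.65, 4.40, 4.49 and 3.92 in R6/2, with R6/2 1 far below all others. Its difference was -0.19 (adjusted p = 0.946) over all arrays and 1.04 (adjusted p = 0.046) without R6/2 1, and it was the 1 gene of these lists called with an array left out.

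The signals and receptors that govern myelination, most of which neurons and astrocytes express too, had differences below 0 in 23 of 29 tested genes, with a median of -0.13 and 1 called, where 46.2% of all genes were below 0 and 1.93% were called. Notch1, a receptor that holds precursors back from maturing, fell by 0.73 on the log2 scale, read from 1 of the 68 probes with 4 GAA triplets in a row, and the part of the repeat in this value was not tested. It read 1.22, 0.85, 1.32 and 1.31 in WT and 0.49, 0.52, 0.57 and 0.20 in R6/2. No R6/2 array reached the WT range, and the adjusted p was 0.0442. With A and G repeat probes left out this probe was removed, so that setting does not test its call. The call was lost with the replicate block (adjusted p = 0.079), median scaling (0.0803), no filter on dim probes (0.111) and an unpaired test of the authors' kind on these values (0.0798), and with any 1 array left out except WT 2, where the adjusted p was between 0.0738 and 0.11 (0.0415 without WT 2). Lingo1, an inhibitor of myelination found in neurons and oligodendrocytes, was at -0.89 (adjusted p = 0.0682), with every R6/2 array below every WT array. Its difference was -0.31 (adjusted p = 0.0449) with normexp and -0.99 (adjusted p = 0.0424) with array weights.

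Markers of other cells were read in the same samples. Among 14 astrocyte, 12 microglial, 10 endothelial, 10 mural, 9 fibroblast, 10 choroid plexus, 7 Schwann cell and 12 general neuronal markers tested, 0 were called, where 1.93% of all genes tested were. The medians of these lists were between -0.29 and -0.04. Of 10 neuroblast and cycling progenitor genes 2 were called higher, Sox11 at 0.64 (adjusted p = 0.0104) and Dcx at 0.60 (adjusted p = 0.0489). Of all 17890 genes tested, 84 were called higher. The call of Dcx was lost with any 1 array left out (adjusted p = 0.0619 to 0.126), the replicate block (0.0701), median scaling (0.0503), no filter on dim probes (0.121), an unpaired test of the authors' kind on these values (0.0804), the mean over its probes (0.114) and A and G repeat probes left out (0.0505). The Schwann cell list, whose myelin genes belong to peripheral nerve, had a median of -0.29. Ncmap, of smallest p in this list, was at -0.31 (adjusted p = 0.148), with every R6/2 array below every WT array. Egr2 was at -1.61 (adjusted p = 0.203) and varied widely between arrays. It read 0.80, 1.33, 1.93 and 0.17 in WT and -0.14, 0.40, -0.36 and -2.09 in R6/2, with overlap. Which cells gave the Egr2 signal was not tested.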

How the data were processed

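The deposited scanner files hold spot intensity values made with Feature Extraction 10.7.3.1, per the file headers; its processed signal is spatially detrended, and no scaling between arrays had been applied. The authors also deposited a table of log2 values, which the values show to be log2 of the processed signal minus a constant per array, with column medians from -3.49 to -3.27. Their centring is thus the constant that left 75% of values below 0 on each array. The p-values that the authors deposited in it are from an unpaired test with Benjamini-Hochberg adjustment, and the fold ratios the authors deposited are without sign, with the direction in a column of its own.

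Here, log2 of the processed signal minus each array's 75th percentile over non-control spots was used. Outlying spots were left out and the spots of a probe averaged. Probes well above background on at least 4 of 8 arrays entered limma 3.58.1 (lmFit, then eBayes; R 4.3.3), R6/2 against WT over all 8 arrays, and p-values were adjusted over 35121 probes. A gene is its tested probe of highest mean. Names came from accessions (26762 probes), gene numbers (5056) or the scanner file (2289), through the RefSeq gene table of GRCm38.p6, and 21574 probes had none. Probe sequences and mm9 positions are the scanner files'. The procedure was checked on simulated data.

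Values on every array are given, in each stage list, for called members and the 4 of smallest p, and other genes are named where called or among the 2 of smallest p in their list. Members, lists and rules were chosen with earlier results of these data known. Same-numbered arrays of the 2 genotypes share a slide column, and their deviations from the genotype means correlated at 0.276, 0.236, 0.356 and 0.165, so the replicate number was treated as a pairing in an alternative fit.

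The alternatives were normexp with an offset of 50 and quantile scaling, quantile scaling, the authors' values, median scaling, no or a stricter filter, array weights, the replicate block, the t-test of the deposited table, the mean over a gene's probes, each array left out, and, chosen after seeing the data, A and G repeat probes left out. The number of arrays limits the precision.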

Additional observations from a re-analysis of the deposited data

Results flagged for a closer look

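In 3 of 88 sets of 4 arrays (44 members in each genotype) 1 array lay far from the other 3, by Dixon's test of the gap to the nearest array relative to the range; chance alone marks about 1 in 20 such sets. Neu4 read -1.88 on WT 1, against at most -2.12 on the other WT arrays. Nkx2-9 read -3.58 on R6/2 4, against at least -3.00 on the other R6/2 arrays. Plekhb1 read 6.26 on R6/2 1, against at least 6.62 on the other R6/2 arrays.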

How the results depend on the processing

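The 44 members gave 0 calls under quantile scaling, the authors' log2 values, median scaling, no filter on dim probes, the replicate block, the t-test of the deposited table, the mean over a gene's probes and without A and G repeat probes. They gave 1 call, Ermn each time, with normexp (-0.53, adjusted p = 0.0337), with probes above background on all 8 arrays (adjusted p = 0.0416) and with array weights (-0.50, adjusted p = 0.0296). Leaving out each array gave 0 to 0 members called, 0 to 1 other oligodendrocyte genes called and 80 to 330 of all genes called, the lowest without WT 4 and the highest without WT 3. The count of all genes called, 345, became 807 with normexp, 152 with median scaling, 83 with no filter, 703 with array weights and 180 with the t-test. The lower and higher calls, 261 and 84, were 491 and 316 with normexp and 95 and 57 with median scaling, which moved the median of all genes from 0.02 to 0.10. Under the replicate block, for which the numbers pair the arrays, all genes called were 185 (149 lower, 36 higher), and no call among the members or the other oligodendrocyte genes changed. A block by slide or scan was not run, since there was 1 of each.

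Members close to 0 changed sign with the setting, with no call. With normexp the differences were 0.021 for Cspg5, -0.041 for Lims2, 0.011 for Mbp, 0.019 for Trf and -0.0078 for Tspan2. With quantile scaling they were 0.0032 for Cspg5, -0.0012 for Lims2 and 0.022 for Trf. With median scaling they were 0.049 for Aspa, 0.0069 for Car2, 0.046 for Cspg4, 0.061 for Cspg5, 0.058 for Mbp and 0.057 for Trf. With array weights they were 0.0063 for Hapln2, -0.022 for Myrf, -0.048 for Ptprz1, 0.025 for Trf and -0.013 for Tspan2. With the mean over probes they were -0.25 for Ptprz1, 0.0029 for Trf and -0.10 for Tspan2. Without A and G repeat probes they were 0.18 for Ermn and 0.078 for Sox5, since other probes then stood for these genes. Median scaling also moved the median of all genes, from 0.02 to 0.10. The mean over probes took in a probe at -0.79 for Ptprz1, 1 at -0.21 for Tspan2 and 1 at 0.03 for Trf. The cause of the remaining changes was not tested.

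Leaving out 1 array changed signs in these ranges: Aspa -0.12 to 0.083, Car2 -0.24 to 0.054, Cspg4 -0.13 to 0.029, Cspg5 -0.098 to 0.048, Gjc3 -0.076 to 0.14, Gsn -0.055 to 0.21, Hapln2 -0.19 to 0.012, Klk6 -0.11 to 0.23, Lims2 -0.057 to 0.11, Mbp -0.13 to 0.075, Myrf -0.081 to 0.22, Opalin -0.037 to 0.26, Ppp1r14a -0.049 to 0.23, Ptprz1 -0.069 to 0.080, Sox10 -0.043 to 0.22, Trf -0.085 to 0.088 and Tspan2 -0.069 to 0.094. Signs of differences this small are therefore not resolved by 4 arrays per genotype. Dim members such as Nkx2-9, Sox6 and the other probes of Sox5 rest on signals far below the 75th percentile.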
